A study of Homo sapiens with 6 samples.

Results

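The genes of cholesterol synthesis and of its control by the SREBP transcription factors were followed by RNA-seq in CCRF-SB, as the labels name the cells, a B lymphoblastoid line from acute lymphoblastic leukaemia. The 27 genes were taken by name from a list of enzymes and regulators, and all 27 were found among the 58735 genes of the table, each under a single gene identifier, with 291 transcripts between them. Estimated counts were summed over the transcripts of a gene, and SCAP was also read transcript by transcript. The siControl group (genotype WT) held 3 libraries of cells that carried an empty vector. The siANXA1 group (genotype ANXA1 down-regulated) held 3 libraries of cells infected with lentivirus against ANXA1 and selected with puromycin as stable lines. Cells of both groups were kept in RPMI-1640 medium with FBS and are labelled Day 5. The labels name no clone, and they do not say that replicates are separate cultures, so the tests measure a spread between libraries that may be technical. Values of a group are given in the order of replicates 1, 2 and 3.

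Cholesterol is built from acetyl-CoA through mevalonate, farnesyl diphosphate, squalene and lanosterol. When sterols in the endoplasmic reticulum are low, SCAP carries the SREBP precursors, encoded by SREBF1 and SREBF2, to the Golgi, where site-1 and site-2 proteases release the part that enters the nucleus and raises transcription of the synthesis genes. When sterols are high, INSIG proteins hold SCAP and its SREBP cargo in the endoplasmic reticulum, and INSIG1 is itself an SREBP target, so the circuit feeds back on itself. Dividing leukaemic cells draw on the pathway for membrane sterol and for the prenyl groups of small GTPases.

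The libraries held between 21333951 and 44148505 counts with a gene, the fewest in siANXA1 replicate 2. ANXA1, the targeted gene, had a mean of 3716 CPM (counts relative to library size, scaled by TMM; SD 34.3, n = 3) in the controls and of 1680 CPM (SD 64.3) after silencing, and the groups did not overlap (edgeR adjusted p = 0.0571). The markers went against the label. Of 13 B cell genes, 10 were under 1 CPM in all 6 libraries, VPREB1 and DNTT had 0 counts in each (which allows up to 0.141 CPM in the shallowest library), RAG1 and CD22 were detected at low levels (8.68 and 1.36 CPM in siControl, 5.56 and 1.49 CPM in siANXA1), and the 13 summed to between 11.1 and 16.0 CPM in siControl and between 7.37 and 11.3 CPM in siANXA1. All 12 erythroid genes passed the filter on low counts, with sums from 2041 to 3481 CPM in siControl and from 5786 to 7108 CPM in siANXA1, led by HBE1 (4.74, 637 and 9.82 CPM in siControl, a level set by replicate 2, and a mean of 2799 CPM in siANXA1), TFRC (1596 and 1345 CPM) and HBG2 (360 and 829 CPM). The 7 T cell genes summed to between 13.0 and 40.0 CPM over all libraries, with CD3D, TRBC1 and CD3G highest and CD2 at 0 counts, and the 6 myeloid genes to between 34.8 and 45.6 CPM, with LYZ, ITGAM and CSF1R highest. The erythroid sum was thus higher in every siANXA1 library, and its part in the results below was not tested. HBE1 was the largest part of that rise, with means of 217 and 2799 CPM. In 4 of the 12 genes every siANXA1 library lay above every siControl library, beside 7.41% of all genes tested. In the other erythroid genes the groups overlapped. In such bulk RNA, a change in the number of cells of a kind and a change of RNA per cell cannot be told apart.

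None of the 27 genes passed the test between the groups (edgeR's quasi-likelihood test, adjusted p under 0.05), against 2 of 17947 genes tested, or 0.0111%. At an unadjusted p under 0.05 there were 2 members, SCAP and CYP51A1, both higher, against 7.93% of all genes in either direction and 3.4% higher. The test by limma-voom called 0 members and 0.0167% of all genes. All 27 passed the filter on low counts. The fold change was positive in 21 members and negative in 6, with a median log2 fold change of 0.11, beside 0.01 over all genes tested, of which 50.5% were positive. In 5 members, namely SCAP, CYP51A1, SQLE, LSS and FDPS, every siANXA1 library lay above every siControl library, and no member showed the opposite. Over all genes tested, 7.41% had such groups in the upward and 7.24% in the downward direction. With upper quartile scaling, which moved the median of all genes to -0.05, SCAP, CYP51A1 and LSS alone kept groups that did not overlap, and 18 members were positive.

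**Figure D1:**
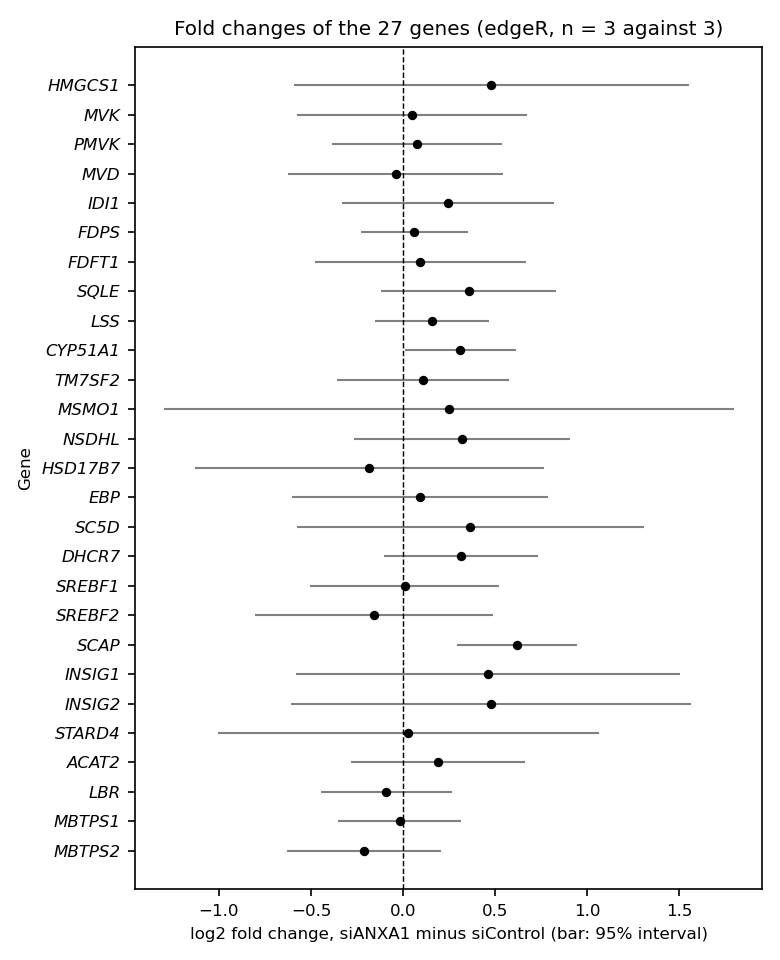
log2 fold change of siANXA1 over siControl (x axis) for each of the 27 genes (y axis), with the 95% interval of edgeR's quasi-likelihood fit as the bar, n = 3 libraries a group. The intervals of SCAP (0.29 to 0.94) and CYP51A1 (0.01 to 0.61) lie above 0 and the other 25 include it.

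SCAP, the sterol-sensing escort of the SREBPs, had the largest fold change of the 27 members. Its level was 85.9, 95.6 and 89.2 CPM in the siControl libraries and 128, 140 and 146 CPM in the siANXA1 libraries. The groups stood well apart, with means of 90.2 ± 4.92 and 138 ± 9.24 CPM (SD, n = 3). The log2 fold change was 0.62 ± 0.14 (SE), with an adjusted p of 0.574 in edgeR and of 0.00615 in DESeq2, which called SCAP as the only member among 258 of 15449 genes with an adjusted p, or 1.67% (higher: 0.77%). Without each library in turn the log2 fold change lay between 0.57 and 0.67, and edgeR called it in none of these fits. SCAP is on the minus strand of chromosome 3, between 47413694 and 47477126 (GRCh38).

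In the estimated counts, the higher SCAP level came from 1 of its 16 transcripts, ENST00000320017. GENCODE release 29 marks it as a target of nonsense-mediated decay, the pathway that degrades mRNAs with an early stop codon. It held 0 counts in each siControl library and 2713, 1543 and 3239 counts in the siANXA1 libraries, or 61.9, 68.3 and 87.7 CPM (scaled over transcripts). The siANXA1 mean was 841-fold the level of 3 counts in the shallowest siControl library, the limit for a 0 by counting error alone. Since the 0 is an estimate from reads divided among transcripts, this is not a lower bound on the change. It made up 48.7%, 50.2% and 60.4% of the SCAP counts in the 3 siANXA1 libraries. The transcript did not pass edgeR (adjusted p = 0.153; 1 of 58702 transcripts passed, 0.0017%) and passed DESeq2 (adjusted p = 2.46e-23; 675 of 57628 transcripts passed, 1.17%).

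The transcript has no exon outside those of the coding transcript. The coding transcript ENST00000265565 has 23 exons and 1279 codons. ENST00000320017 has 18 exons and leaves out exons 4 to 8 of the coding transcript, 785 bases between chr3:47425485-47428670, so that exon 3 (chr3:47435008-47435137) is joined to exon 9 (chr3:47423933-47424045). Its exon 1 is also shorter, 139 bases against 315, and exon 17 of the coding transcript is 3 bases shorter in it. The number of bases left out is not a multiple of 3, and the frame ends after 165 codons, in exon 6 of the shorter transcript, 61 bases before the next junction. The exons left out cover codons 85 to 346 of the coding frame, after 84 codons that both transcripts share. The junctions at the exons left out are shown with 15 bases on either side, since they are the difference that changes the reading frame. Lower case marks the upstream and capitals the downstream exon, read on the minus strand.
Coding transcript, exon 3 to exon 4: gagcagcctgagtggTATGTGGGTGCCCCG
Coding transcript, exon 8 to exon 9: caccctcaatggcggCGAGATTTTCCCCTA
Decay transcript, exon 3 to exon 9: gagcagcctgagtggCGAGATTTTCCCCTA
The end of the reading frame of the decay transcript (chr3:47420992-47421021) is shown next, with its stop codon in capitals.
Decay transcript, last 9 codons and stop: tctctttgctgtcgtggggctggtgtcTGA

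**Figure D2:**
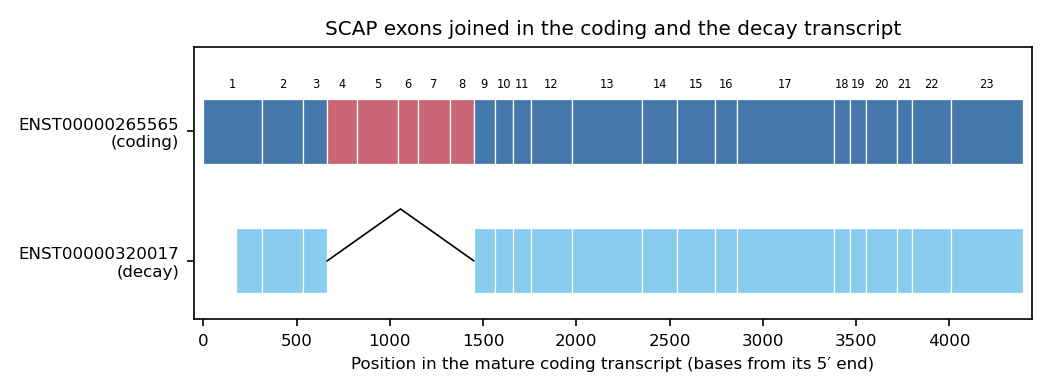
Exons of the SCAP coding transcript ENST00000265565 (upper row, numbered, exons 4 to 8 in red) and of the decay transcript ENST00000320017 (lower row), drawn to scale by position in the mature coding transcript (x axis, bases). The line bridges the 785 bases that the decay transcript leaves out. Both rows share exons 9 to 23 apart from 3 bases of exon 17.

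No other SCAP transcript was so divided. The coding transcript ENST00000265565 had 43.0, 65.04 and 48.03 CPM in siControl and 33.3, 44.9 and 42.2 CPM in siANXA1, with groups that overlapped. ENST00000441517, a decay transcript that joins exon 3 to exon 7, had means of 21.5 ± 3.04 and 14.5 ± 3.84 CPM. ENST00000416208, a decay transcript that joins exon 3 to exon 10, had 21.4, 12.1 and 13.9 CPM against 10.8, 0 and 0 CPM. In both, the siANXA1 libraries lay below the siControl libraries, and neither passed edgeR (adjusted p = 0.998 for each). That test called 1 of 58702 transcripts, so not passing it says little about a single transcript. Among retained-intron transcripts, ENST00000468965, ENST00000465628 and ENST00000494938, each stayed between 0.44 and 1.96 CPM in every library, and the others averaged less than 0.5 CPM. Summed without ENST00000320017, a setting chosen after seeing the data, SCAP was lower in every siANXA1 library, at 64.5 ± 6.14 CPM after silencing against 90.2 ± 4.92 CPM. Leaving out a transcript at 0 in siControl could only lower the siANXA1 side, so the turned direction is a description. Some of the counts left out may belong to transcripts with the same exons. The log2 fold change was -0.48 (edgeR adjusted p = 0.605). With the most abundant transcript alone it was -0.30 (edgeR adjusted p = 0.895).

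The counts are estimates that divide reads among transcripts sharing exons, and a value of 0 beside a high one was not rare. Of 6121 transcripts with a gene that reached 50 CPM in any library, 483 were at 0 counts in another. Among these 483, ENST00000320017 was the single member transcript. It was the only transcript in the table at 0 in all siControl libraries and at 50 CPM or more in all siANXA1 libraries. The reverse was seen in 1 transcript. This rule was not planned and mirrors the pattern of ENST00000320017, whose lowest siANXA1 value was 61.9 CPM, so it is a description and no support.

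**Figure D3:**
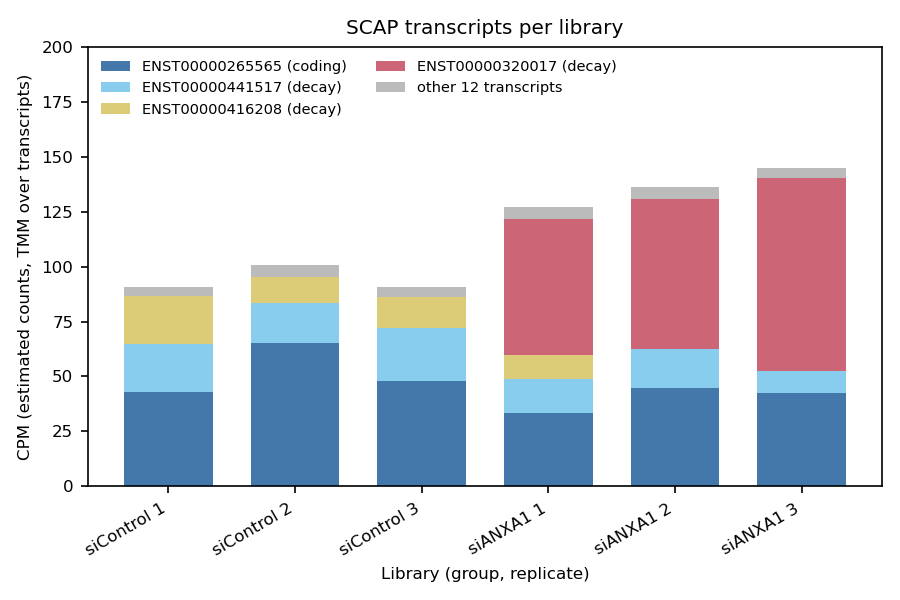
SCAP transcripts in each library (x axis) as stacked CPM of estimated counts (y axis). ENST00000320017 adds between 61.9 and 87.7 CPM in the 3 siANXA1 libraries and is at 0 in the 3 siControl libraries, while the coding transcript ranges from 33.3 to 65.04 CPM over all 6.

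The SREBP genes themselves did not pass the test. SREBF2, whose product mainly drives sterol synthesis genes, read 151, 132 and 89.5 CPM in siControl and 90.1, 144 and 99.9 CPM in siANXA1, with a log2 fold change of -0.16 (95% interval -0.80 to 0.49), which was -0.38 without siANXA1 replicate 2 and -0.0015 without siControl replicate 1. SREBF1, whose product mainly drives fatty acid genes, read 79.0, 76.4 and 88.1 CPM against 62.2, 103 and 80.1 CPM (0.01, interval -0.50 to 0.52). The groups overlapped for both. MBTPS1, the site-1 protease, stood at 154 ± 0.307 and 152 ± 17.3 CPM, and MBTPS2, the site-2 protease, at 56.2 ± 8.73 and 48.5 ± 2.44 CPM. Their intervals, -0.36 to 0.32 and -0.63 to 0.21, exclude a 2-fold change in either direction.

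The INSIG genes spread widely between libraries of a group. INSIG1, which retains SCAP when sterols are high, read 74.1, 75.6 and 35.1 CPM in siControl and 59.4, 133 and 61.6 CPM in siANXA1. INSIG2, the related anchor that is less dependent on SREBP, read 20.6, 21.8 and 6.62 CPM against 19.8, 26.5 and 22.0 CPM. In both genes siControl replicate 3 was lowest and siANXA1 replicate 2 highest in CPM, and the highest library exceeded the lowest 3.79-fold and 4.01-fold. Per length, INSIG2 stood at 16.3 ± 2.09 TPM (SD) in siControl and 19.8 ± 5.62 TPM in siANXA1. Its wide siControl spread was thus seen in CPM and not in TPM, and the reason was not tested. The log2 fold changes were 0.46 ± 0.43 and 0.48 ± 0.45 (SE), with edgeR adjusted p of 0.781 for both. Without siANXA1 replicate 2 the value of INSIG1 was -0.022, and without siControl replicate 3 that of INSIG2 was 0.097.

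In the mevalonate arm, HMGCS1, which makes HMG-CoA, showed wide spread, with 108, 65.6 and 176 CPM in siControl and 90.1, 201 and 196 CPM in siANXA1. ACAT2, the cytosolic thiolase that supplies its substrate, stood at 106 ± 25.2 and 120 ± 6.04 CPM. MVK, the mevalonate kinase, had means of 32.2 ± 6.64 and 33.3 ± 8.46 CPM, and PMVK, the phosphomevalonate kinase, of 29.4 ± 4.34 and 30.9 ± 2.98 CPM. Neither kinase moved by more than the spread between libraries. MVD, the decarboxylase that makes isopentenyl diphosphate, stood at 91.0 ± 13.99 and 88.5 ± 25.3 CPM, and IDI1, its isomerase, at 114 ± 15.03 and 135 ± 39.9 CPM. FDPS, which makes farnesyl diphosphate, had the narrowest range of the 27 genes (1.06-fold), at 132, 132 and 136 CPM against 139, 141 and 137 CPM. Its groups did not overlap, yet the log2 fold change was 0.06 and its interval reached from -0.23 to 0.35.

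Along the squalene and lanosterol steps, SQLE, the squalene epoxidase, read 205, 210 and 215 CPM in siControl and 234, 348 and 224 CPM in siANXA1. Most of its difference came from siANXA1 replicate 2, and its log2 fold change fell from 0.36 to 0.13 without that library. LSS, the lanosterol synthase, read 116, 117 and 123 CPM against 131, 125 and 141 CPM (0.16 ± 0.13, SE). CYP51A1, the lanosterol demethylase, read 152, 162 and 172 CPM against 206, 190 and 206 CPM. Its log2 fold change was 0.31 ± 0.13 (SE), which edgeR did not call (adjusted p = 0.627) and which stayed between 0.26 and 0.35 without each library in turn. FDFT1, the squalene synthase, had overlapping groups as a gene, at 146 ± 38.4 and 156 ± 28.6 CPM. The estimated counts of its transcripts differed in direction. The coding transcript ENST00000220584 read 66.8, 69.0 and 56.6 CPM in siControl and 35.3, 37.5 and 32.7 CPM in siANXA1, whereas the coding transcript ENST00000615631 read 0, 23.4 and 13.8 CPM against 33.7, 28.6 and 35.8 CPM. The former passed DESeq2 (adjusted p = 0.00828) and not edgeR (adjusted p = 0.835), and both were named after their values were seen. As for SCAP, these estimates divide reads among transcripts, and whether the transcripts themselves changed was not tested. Over the 189 member transcripts tested, 21 had groups that did not overlap and 7 an unadjusted p under 0.05 in edgeR, against backgrounds of 12.3% and 4.69%. Neither count was above its background. Besides ENST00000320017 of SCAP and ENST00000220584 of FDFT1, DESeq2 called ENST00000511774 of HMGCS1. The HMGCS1 transcript had 0 counts in the siControl libraries and 13, 9 and 12 counts in the siANXA1 libraries. Over all transcripts DESeq2 called 675 of 57628, or 1.17%.

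After lanosterol, the C14 sterol reductases LBR and TM7SF2 differed in level. LBR, which also anchors chromatin to the nuclear lamina, was the most abundant member per length at 289 TPM (a length-scaled level, mean of 6 libraries), and TM7SF2 was near the bottom of that order at 19.4 TPM. LBR read 511, 571 and 703 CPM against 576, 544 and 555 CPM, and TM7SF2 stood at 14.3 ± 0.202 and 15.4 ± 1.85 CPM. MSMO1, the C4 methyl oxidase, spread the widest of all members, at 118, 124 and 49.4 CPM in siControl and 57.2, 230 and 59.1 CPM in siANXA1, a 4.65-fold range. Its log2 fold change of 0.25 became -0.74 without siANXA1 replicate 2. Of the later C4 demethylation enzymes, NSDHL had means of 47.6 ± 12.5 and 59.4 ± 9.95 CPM and HSD17B7 of 22.1 ± 6.11 and 19.5 ± 9.28 CPM. EBP, the sterol isomerase, stood at 45.04 ± 14.8 and 47.98 ± 9.65 CPM. SC5D, the C5 desaturase, read 38.7, 15.03 and 36.7 CPM against 29.6, 46.7 and 40.3 CPM, and was low in siControl replicate 2 alone. DHCR7, which completes one route to cholesterol, read 93.1, 114 and 104 CPM against 111, 123 and 152 CPM (log2 fold change 0.31 ± 0.17, SE, and 0.18 without siANXA1 replicate 3). STARD4, a carrier that moves sterol between membranes, read 139, 224 and 84.5 CPM against 118, 226 and 112 CPM. None of these genes passed edgeR (adjusted p from 0.663 for DHCR7 to 0.988 for STARD4).

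On the scale per length, FDPS (217 TPM), SQLE (151 TPM) and FDFT1 (134 TPM) followed LBR, and DHCR7, MSMO1, MVD and CYP51A1 lay between 102 and 108 TPM, closer together than the SD of MSMO1 within siANXA1 (109 TPM). MVK (27.4 TPM), MBTPS2 (21.1 TPM) and INSIG2 (18.0 TPM) were the lowest with TM7SF2. SCAP (65.8 TPM in siControl and 83.0 TPM in siANXA1) was above SREBF2 (44.4 and 40.8 TPM) in both groups. Its order with SREBF1 (75.1 and 77.5 TPM) turned between them, but within the SD of SREBF1 in siANXA1 (19.2 TPM). The siANXA1 level of SCAP includes ENST00000320017.

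A pattern among the members followed single libraries. Their median deviation from the gene means, in log2 CPM, was -0.04, -0.01 and -0.13 in the siControl libraries and -0.10, 0.33 and 0.01 in the siANXA1 libraries. The siANXA1 replicate 2 library, which is also the shallowest, was above the gene mean in 21 of 27 members and was the highest of the 6 libraries in 14 of 27, where 18.5% of all genes tested were highest in it. The CPM of the 17 enzymes from HMGCS1 to DHCR7 summed to 1503, 1520 and 1516 in siControl and to 1516, 2107 and 1694 in siANXA1. Only siANXA1 replicates 2 and 3 stood above the siControl range.

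**Figure D4:**
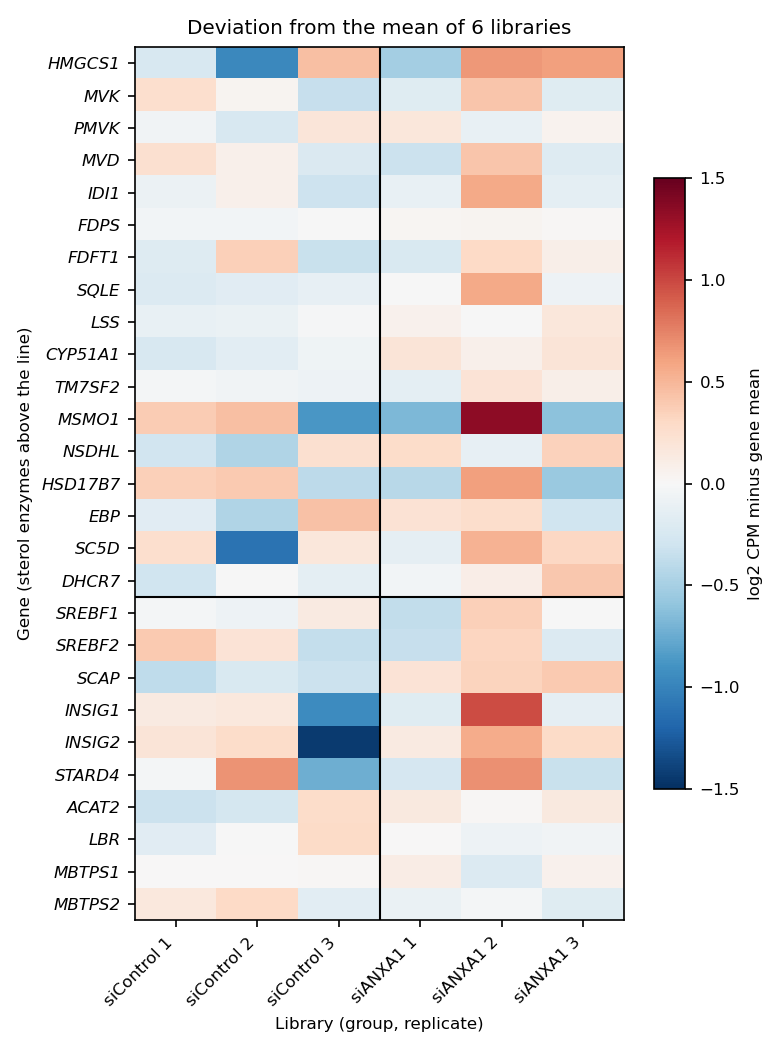
Deviation of log2 CPM from the gene's mean over 6 libraries (colour) for the 27 genes (rows, the 17 sterol enzymes above the line) in each library (columns, siControl left of the line). The siANXA1 replicate 2 column is mostly red, with a median of 0.33, and MSMO1 and INSIG1 are its strongest members.

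A second feature crossed the groups. MSMO1, HSD17B7, INSIG1, STARD4, SREBF2, MVK, MVD, IDI1 and MBTPS2 each read higher in siControl replicates 1 and 2 and siANXA1 replicate 2 than in the other 3 libraries, 9 of 27 members where 19.7% of all genes tested did so. PMVK, NSDHL, ACAT2 and MBTPS1 read lower in those 3, 4 of 27 members against 20.1% of all genes. Genes of the amino acid stress response were divided the same way: DDIT4, which restrains mTOR, was at 2282, 2171 and 189 CPM without and at 110, 1435 and 109 CPM with silencing, and ASNS, asparagine synthetase, read 839, 761 and 132 CPM against 135, 528 and 130 CPM. Principal component 1 of all other genes, with 39.9% of the variance, placed the libraries in this order too (-63.2, -62.9 and 55.0 in siControl; 56.5, -44.8 and 59.4 in siANXA1). What this division comes from was not tested.

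**Figure D5:**
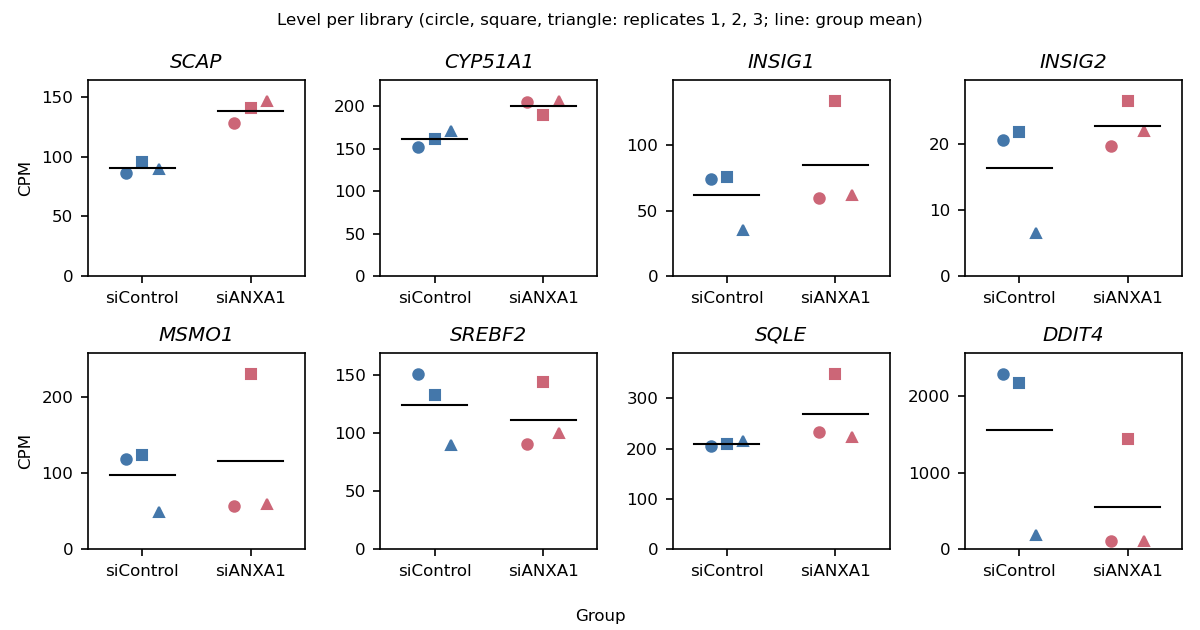
CPM (y axis, from 0) of 7 members and of DDIT4 in siControl and siANXA1 libraries (x axis), with symbols for replicates and a line at the group mean. SCAP, CYP51A1 and SQLE separate the groups. INSIG1, MSMO1, SREBF2 and DDIT4 are instead high in siControl replicates 1 and 2 and in siANXA1 replicate 2.

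With principal component 1 as a covariate, 23 of 27 members had a positive fold change, with a median of 0.16 beside -0.00076 over all genes, of which 49.9% were positive. At an unadjusted p under 0.05 there were 7 members higher and 0 lower, against 7.07% of all genes higher. They were INSIG1 (log2 fold change 0.91), INSIG2 (1.11), MSMO1 (0.73), SCAP (0.63), SQLE (0.44), IDI1 (0.42) and CYP51A1 (0.26). None passed after adjustment in edgeR (adjusted p from 0.145 for INSIG1 to 0.371 for SQLE), where 5 of all genes, or 0.0279%, did. The component set siANXA1 replicate 2 beside siControl replicates 1 and 2, and siControl replicate 3 beside siANXA1 replicates 1 and 3. Fold changes with this covariate thus leaned on siANXA1 replicate 2 and siControl replicate 3. Those were the highest and the lowest library in CPM for INSIG1, INSIG2, MSMO1 and IDI1.

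SREBPs act at sterol regulatory elements together with NF-Y, which binds CCAAT. Promoters are shown as examples for 4 of the 9 members that were higher in siControl replicates 1 and 2 and siANXA1 replicate 2. They were chosen with their matches known, so they stand for no share of the 9, of which MBTPS2 had no match in these bases. Of the 4 members lower in those libraries, NSDHL had 5 CCAAT matches and PMVK and MBTPS1 had no match. No promoter was found for ACAT2. The sequences are the 250 bases before each start in RefSeq (GRCh38.p14), with capitals at each match on either strand to the sterol regulatory element TCACNCCAC, to CCAAT or to the E-box CACGTG.
SREBF2, chr22:41832855-41833104, plus strand: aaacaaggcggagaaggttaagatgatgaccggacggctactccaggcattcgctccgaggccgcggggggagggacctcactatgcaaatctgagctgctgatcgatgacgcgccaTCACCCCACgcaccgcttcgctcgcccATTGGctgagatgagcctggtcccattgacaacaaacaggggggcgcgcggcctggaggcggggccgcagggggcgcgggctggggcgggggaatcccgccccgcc
INSIG1, chr7:155297628-155297877, plus strand: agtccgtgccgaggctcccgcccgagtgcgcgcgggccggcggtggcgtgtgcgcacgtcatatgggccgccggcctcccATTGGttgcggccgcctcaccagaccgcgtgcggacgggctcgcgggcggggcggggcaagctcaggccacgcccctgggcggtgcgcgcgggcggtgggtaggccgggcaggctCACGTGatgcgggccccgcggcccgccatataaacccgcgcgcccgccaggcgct
MSMO1, chr4:165327419-165327668, plus strand: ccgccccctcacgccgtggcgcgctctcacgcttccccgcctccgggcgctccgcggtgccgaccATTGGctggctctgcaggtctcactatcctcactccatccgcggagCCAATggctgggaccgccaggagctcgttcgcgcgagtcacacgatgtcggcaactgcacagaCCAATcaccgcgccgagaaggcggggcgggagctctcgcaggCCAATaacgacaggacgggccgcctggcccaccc
STARD4, chr5:111512536-111512785, minus strand: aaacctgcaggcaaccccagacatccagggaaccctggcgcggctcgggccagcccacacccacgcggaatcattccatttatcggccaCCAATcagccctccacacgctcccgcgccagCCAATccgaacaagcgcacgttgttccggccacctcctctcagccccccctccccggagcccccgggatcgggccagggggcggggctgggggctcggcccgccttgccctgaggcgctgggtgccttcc
The 300-base windows of the RefSeq table (250 before and 50 after the start) were found for 24 of the 27 members, all but ACAT2, FDFT1 and SQLE. CCAAT or its complement was in the windows of 16 of 24 members and in 39.7% of all 27305 genes in the table. TCACNCCAC was in those of 1 member, SREBF2, and in 1.39% of all genes, and CACGTG in those of INSIG1, LSS, SC5D and SCAP and in 8.77% of all genes. A match is a run of letters and not a bound site.

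Genes around the pathway were read from 5 further lists, and none of their 47 tested members passed edgeR, beside the background of 0.0111%. The SREBP fatty acid targets had 6 of 11 positive fold changes and a median of 0.01. FASN, the fatty acid synthase, stood at 742 ± 218 and 1018 ± 116 CPM, and SCD, the stearoyl-CoA desaturase, at 956 ± 292 and 792 ± 231 CPM. ELOVL6, a fatty acid elongase chosen here with its values known, read 87.2, 85.2 and 124 CPM against 187, 146 and 185 CPM, and was the only gene of these lists with an unadjusted p under 0.05 in edgeR (adjusted p = 0.605). The isoprenoid branch had 8 of 13 positive with a median of 0.10, led in level by NUS1, a subunit of the dolichol-making enzyme, at 230 ± 75.6 and 254 ± 63.4 CPM, and ICMT, which methylates prenylated proteins, at 91.5 ± 5.81 and 98.0 ± 47.9 CPM.

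Genes of sterol-dependent degradation and sensing had 8 of 11 positive with a median of 0.11, with VCP, which extracts ubiquitinated proteins from membranes, at 512 ± 112 and 587 ± 58.2 CPM and its cofactor UFD1 at 241 ± 39.4 and 260 ± 64.1 CPM. Sterol transport and esterification genes had 4 of 8 tested positive with a median of -0.11, with VAPA at 473 ± 58.9 and 480 ± 28.9 CPM and OSBP, the oxysterol-binding protein, at 191 ± 8.44 and 195 ± 3.49 CPM. GRAMD1C had 0 counts in every library, and LIPA and GRAMD1B did not pass the filter on low counts. Of the liver X receptors and their targets 2 of 4 tested were positive with a median of -0.05, with NR1H2, a sterol-activated receptor, at 37.2 ± 4.55 and 32.5 ± 1.19 CPM and its partner RXRA at 32.2 ± 10.4 and 33.3 ± 6.58 CPM.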

How the data were processed

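The authors deposited estimated counts per transcript for 6 RNA-seq libraries, whole numbers that were not normalized, as a table with and a table without annotation, in which all 1335690 values were equal. That they are estimates was read from the values. Libraries were made from total RNA with a TruSeq kit, per the labels' protocols. No aligner, counter or strand setting is stated (not given in the sources used here), so overlapping and antisense genes cannot be told apart. Per the submitters' processing notes the build is mm10, of the mouse, but all 291 member transcripts had the same position and gene in GENCODE release 29 (GRCh38). The 16014 rows without a gene, between 16.9% and 17.7% of each library's counts, stayed out of tests and library sizes.

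Counts were summed per gene and tested in R 4.3.3 by the quasi-likelihood test of edgeR 4.0.16 (default low-count filter, TMM, robust fit, group as the only term), two-sided, with Benjamini-Hochberg adjustment over all 17947 genes or 58702 transcripts tested and a threshold of 0.05. SE is the log2 fold change divided by the root of the F statistic. With 3 against 3 libraries an exact permutation test cannot go below p = 0.1 and was not used. TPM was computed from the deposited transcript lengths. Deviations used log2 CPM with a prior count of 2. Alternatives were DESeq2 1.42.0, limma-voom 3.58.1, 3 scalings, 2 filters, the replicate number as a block, principal component 1 of the genes other than the members as a covariate, the most abundant transcript per gene, the rows without a gene kept, and each library left out. Sequences came from GENCODE release 29 transcripts and the RefSeq promoter table. Floors from counts cover counting error only. The intervals of fold changes come from the quasi-likelihood fit of edgeR and include the spread between libraries.

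The members and lists, the covariate included, were chosen with earlier results of these data known. All 27 members were named, with SCAP transcripts averaging 0.5 CPM or more. Of each further list the 2 genes with the highest mean CPM were named, since none passed the threshold. Other names were chosen after their values were seen, as stated there. Of each marker list the 3 genes with the highest mean CPM were named, except for a gene that is not reported here.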

Additional observations from a re-analysis of the deposited data

How the results depend on the processing

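All fold changes here are log2, siANXA1 over siControl. The count of members past the threshold was 0 with all 6 libraries, 1 in DESeq2 (SCAP) and 0 under each other setting; at an unadjusted p under 0.05 edgeR had 2. The count of SCAP transcripts was 0 in edgeR and 1 in DESeq2, and 0 without each library. No gene of the further lists was called under any setting. ANXA1 kept its direction throughout and passed in 6 settings (DESeq2, limma-voom, the strict filter, the covariate, the rows without a gene kept, and without siControl replicate 3). Signs near 0 were unstable and the causes were not tested. With upper quartile scaling MVK became -0.014, SREBF1 -0.041 and STARD4 -0.039. In limma-voom MSMO1 became -0.070 and SREBF1 -0.042. With no filter SREBF1 became -0.020 and STARD4 -0.0056, with the strict filter -0.014 and -0.0082, and with the rows without a gene kept -0.018 and -0.00025. With principal component 1 as covariate PMVK became -0.040, MVD 0.15, HSD17B7 0.16 and SREBF2 0.12. With the most abundant transcript MVD became 0.14, FDFT1 -0.79, TM7SF2 -0.10, SC5D -0.22, SCAP -0.30 and MBTPS1 0.16, and SCAP without ENST00000320017 became -0.48, a setting chosen after seeing the data.

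Without each library in turn the ranges that crossed 0 were MVK -0.18 to 0.19, PMVK -0.031 to 0.19, MVD -0.29 to 0.10, IDI1 -0.022 to 0.37, FDFT1 -0.043 to 0.32, MSMO1 -0.74 to 0.57, HSD17B7 -0.64 to 0.025, EBP -0.095 to 0.38, SREBF1 -0.19 to 0.17, INSIG1 -0.022 to 0.66, STARD4 -0.37 to 0.43, LBR -0.20 to 0.039 and MBTPS1 -0.077 to 0.074. Among SCAP transcripts they were ENST00000465628 -0.071 to 0.52, ENST00000468965 -0.094 to 0.22 and ENST00000494938 -0.41 to 0.24. Among the genes, ranges that kept their sign but moved by over 1.5 times were HMGCS1 0.18 to 0.89, SC5D 0.032 to 0.58, NSDHL 0.17 to 0.54, ACAT2 0.076 to 0.40, TM7SF2 0.035 to 0.20, SQLE 0.13 to 0.47, DHCR7 0.18 to 0.41, INSIG2 0.097 to 0.73, SREBF2 -0.38 to -0.0015 and MBTPS2 -0.34 to -0.12. Leaving out siANXA1 replicate 2 alone turned 11 of these 35 fold changes.

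Deviations of same-numbered libraries correlated at -0.11, 0.26 and 0.26, and those of replicates 2 and 3 were the highest of all pairs across the groups. However, siControl replicate 1 correlated best with siANXA1 replicate 2 (0.23). Pairs from the same side of principal component 1 all correlated positively and pairs from opposite sides all negatively. Whether the replicate numbers pair the libraries cannot be settled from so few correlations, whose signs follow that division. With the replicate block, 0 members and 0 SCAP transcripts were called, SCAP stood at 0.62, and SREBF1 alone turned, to -0.019. At this depth and spread the 95% intervals of MSMO1, -1.30 to 1.79, and INSIG2, -0.61 to 1.56, leave changes over 2-fold undetected.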
